A study of Homo sapiens with 12 samples.

Results

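The genes described here are 32 imprinted genes of the large imprinted domains, of 36762 gene symbols counted in bulk RNA sequencing of human embryonic stem cells (hESC) and of incipient mesoderm-like cells (iMeLC). They were taken by symbol from a list, with the retrogene loci NNAT and NAP1L5 left out, and all 32 had a count in at least 1 library. By the parental allele usually expressed, 19 are paternal, 8 are maternal and 5 (GRB10, DDC, UBE3A, GNAS and IGF2R) depend on the tissue, transcript or person. The allele is textbook knowledge and was not measured, because total counts per gene do not separate the parental copies.

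All cells were of UCLA1, an established human embryonic stem cell line, and no group received an agent beyond the differentiation itself as far as the labels say. CDKO lines carry a knockout of the catalytic domain of TET1, an enzyme that oxidises 5-methylcytosine in DNA, and CTRL lines carry the genotype Control. The groups were CDKO iMeLC (lines CDKO1102, CDKO1105 and CDKO1312), CTRL iMeLC (lines CTRL1101, CTRL1106 and CTRL1109), CDKO hESC and CTRL hESC, with 3 libraries each. The iMeLC are a short-lived intermediate between stem cells and primordial germ cell-like cells, the precursors of sperm and egg modelled in a dish, and the series asked how TET1 catalysis bears on that fate. The labels place the same lines at both stages, but the hESC columns carry only a genotype and a number, so a hESC library is not tied to a line here. Whether each line is 1 clone was not stated in the labels.

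An imprinted gene is expressed from the copy inherited from one parent. One copy is marked at an imprinting control region, a stretch of DNA methylated since the germ line on the maternal or paternal chromosome. Zinc finger proteins such as ZFP57 and ZNF445 bind the methylated copy and keep its mark through early development. Several such regions act through a long non-coding RNA or through the insulator protein CTCF, so that neighbouring genes of a domain come from opposite parents. Imprints are erased in primordial germ cells, a step that in mice is incomplete when Tet1 is lost.

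The sequences of 5 promoters are shown, of genes picked by hand. The CDKO and CTRL libraries of GRB10 and ZNF597 do not overlap at either stage, those of L3MBTL1 in iMeLC and those of ZDBF2 in hESC. The start of SNRPN lies at a maternally methylated control region. Whether the other starts shown lie at a control region was not looked up. Other genes whose libraries do not overlap, such as UBE3A, are not shown. Each runs 5′ to 3′ from 250 bases before to 50 bases after a RefSeq start on GRCh38.p14, and where a gene has several promoters the one with the most matches, then the most CpG, is given. Capitals mark TGCCGC, the hexamer read by ZFP57, or its reverse complement GCGGCA. GRB10 is at chr7:50793404-50793703 (minus strand), ZNF597 at chr16:3443455-3443754 (minus strand), L3MBTL1 at chr20:43507447-43507746 (plus strand), SNRPN at chr15:24954737-24955036 (plus strand) and ZDBF2 at chr2:206274760-206275059 (plus strand).
GRB10: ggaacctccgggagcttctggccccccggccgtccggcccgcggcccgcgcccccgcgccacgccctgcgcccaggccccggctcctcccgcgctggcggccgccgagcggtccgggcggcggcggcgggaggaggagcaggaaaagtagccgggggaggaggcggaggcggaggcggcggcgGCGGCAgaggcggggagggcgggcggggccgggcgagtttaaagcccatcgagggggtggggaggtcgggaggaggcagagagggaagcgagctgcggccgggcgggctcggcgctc
ZNF597: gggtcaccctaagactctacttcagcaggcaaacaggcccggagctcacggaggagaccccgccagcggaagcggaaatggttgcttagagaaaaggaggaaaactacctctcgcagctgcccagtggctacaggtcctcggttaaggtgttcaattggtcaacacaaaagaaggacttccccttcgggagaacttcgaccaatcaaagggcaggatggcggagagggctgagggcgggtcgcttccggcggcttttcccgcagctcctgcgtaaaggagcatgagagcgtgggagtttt
L3MBTL1: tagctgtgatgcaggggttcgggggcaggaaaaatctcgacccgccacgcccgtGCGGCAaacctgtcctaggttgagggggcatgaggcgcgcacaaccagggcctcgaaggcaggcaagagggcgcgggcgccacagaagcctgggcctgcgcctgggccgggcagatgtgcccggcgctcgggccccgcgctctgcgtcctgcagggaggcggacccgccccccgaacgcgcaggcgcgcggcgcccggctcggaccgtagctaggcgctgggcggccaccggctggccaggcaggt
SNRPN: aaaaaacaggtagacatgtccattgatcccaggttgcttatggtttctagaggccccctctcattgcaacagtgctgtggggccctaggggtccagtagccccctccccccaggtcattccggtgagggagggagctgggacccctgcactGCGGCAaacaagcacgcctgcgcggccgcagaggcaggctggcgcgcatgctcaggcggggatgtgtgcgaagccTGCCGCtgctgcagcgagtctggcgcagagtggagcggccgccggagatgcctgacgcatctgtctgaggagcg
ZDBF2: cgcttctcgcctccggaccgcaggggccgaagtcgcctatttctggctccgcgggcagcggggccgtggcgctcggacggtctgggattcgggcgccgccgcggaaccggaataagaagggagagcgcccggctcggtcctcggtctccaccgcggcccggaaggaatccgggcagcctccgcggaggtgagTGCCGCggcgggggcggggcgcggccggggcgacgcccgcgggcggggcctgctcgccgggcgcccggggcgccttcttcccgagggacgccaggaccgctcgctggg
The promoter shown for GRB10, 1 of 5, holds 44 CpG and 1 hexamer. That shown for L3MBTL1, 1 of 2, holds 35 CpG and 1 hexamer, and that for ZDBF2, 1 of 2, holds 50 CpG and 1 hexamer. The promoters of GRB10, L3MBTL1 and ZDBF2 that are not shown hold no hexamer. The SNRPN promoter shown, 1 of 4 and also that of SNURF, holds 18 CpG and 2 hexamers. The only ZNF597 promoter holds 17 CpG and no hexamer. Over the 47 promoters that the table gives for 20 of the 32 genes, 40.4% hold the hexamer on either strand, against 16.7% of all 35116 promoters of that length. The median CpG count is 18 in these promoters and 14 in all. Promoters of a gene overlap or are shared in part, so these shares are descriptions, and a match is not a bound site.

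The 12 libraries held 52121702 to 89723454 counts in CDKO iMeLC, 91226186 to 109479071 in CTRL iMeLC, 12517593 to 18556180 in CDKO hESC and 16325691 to 18855099 in CTRL hESC. Stage coincides with the count table and with depth, and stage and table cannot be told apart. TET1, counted over the whole gene and so no check of the deleted domain, stood at 304 to 356 CPM in CDKO iMeLC, 288 to 322 in CTRL iMeLC, 335 to 396 in CDKO hESC and 290.4 to 339 in CTRL hESC (CPM, counts scaled to a common library total after TMM normalisation). Marker sums fitted the stage labels. In those 4 groups 6 pluripotency genes summed to 3879 to 4212, 3410.3 to 3922, 5967 to 6398 and 5270.3 to 5953 CPM. The sums of 6 primitive streak genes were 842 to 1144, 324 to 970.2, 60.3 to 181 and 22.7 to 56.7 CPM. Not every gene followed its sum. NANOG, of the pluripotency genes, averaged 211, 157, 186 and 141 CPM, higher in iMeLC than in hESC of its genotype. MESP1, of the streak genes, averaged 0.482, 0.858, 0.458 and 0.721 CPM. In bulk samples fewer expressing cells and less RNA per cell cannot be told apart.

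The 32 genes ranged between 0 and 837 CPM in single libraries. Per kilobase of exon, the scale on which genes can be compared, GNAS, the stimulatory G protein subunit, was highest in every group, at 60.5 CPM per kb in CDKO iMeLC, 45.5 in CTRL iMeLC, 43.4 in CDKO hESC and 41.9 in CTRL hESC. PEG10, a gag-like protein derived from a retrotransposon and needed for the mouse placenta, came next (24.7, 30.8, 32.9 and 41.2 CPM per kb in the same groups), followed by MEST, a hydrolase-fold protein (22.0, 23.0, 18.6 and 18.8). In CPM not divided by length, 6 genes averaged at least 100 CPM in CDKO iMeLC, 6 in CTRL iMeLC, 6 in CDKO hESC and 5 in CTRL hESC, and 11, 10, 9 and 9 averaged under 1 CPM. IGF2 matched more than 1 annotation record and was given no length.

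**Figure D1:**
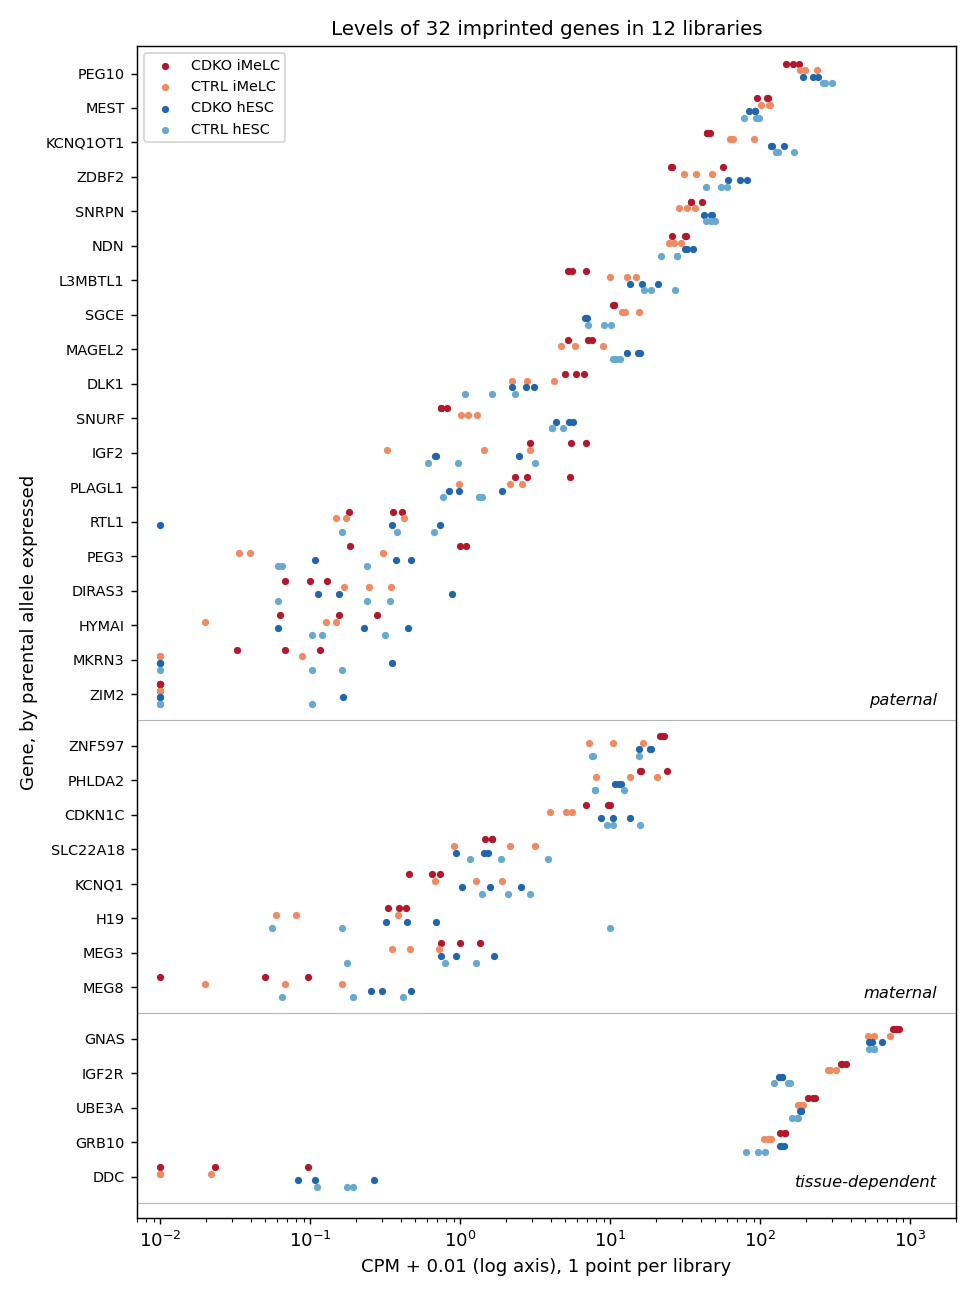
Levels of the 32 genes in the 12 libraries, in CPM + 0.01 on a log axis, grouped by the parental allele usually expressed (CPM are not divided by gene length). Each point is 1 library; the points of H19 in CTRL hESC run from 0.0459 to 9.89 CPM, while those of GNAS, UBE3A and GRB10 lie close together in each group.

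Between genotypes, 1 of the 23 genes tested in hESC passed, GRB10, which was higher in CDKO, and none was lower. Over all 17222 genes tested 1.31% passed (0.598% higher and 0.714% lower), by edgeR's quasi-likelihood test with Benjamini-Hochberg adjustment at 0.05, the test used throughout. In iMeLC none of 28 tested genes passed, against 0.345% of 19999 genes. At an unadjusted p under 0.05 there were 7 in hESC, where 16.1% of all genes tested were, and 15 in iMeLC, where 19.8% were. DESeq2 called 3 in hESC, against 3.62% of all genes it tested, and 5 in iMeLC, against 7.29%. The median log2 fold change of the tested genes was 0.06 in hESC and 0.23 in iMeLC, against 0.00 and -0.03 over all genes tested. The genotype comparisons in the 2 stages use separate libraries, though of the same lines by the labels, whereas each shares its libraries with the stage comparisons.

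**Figure D2:**
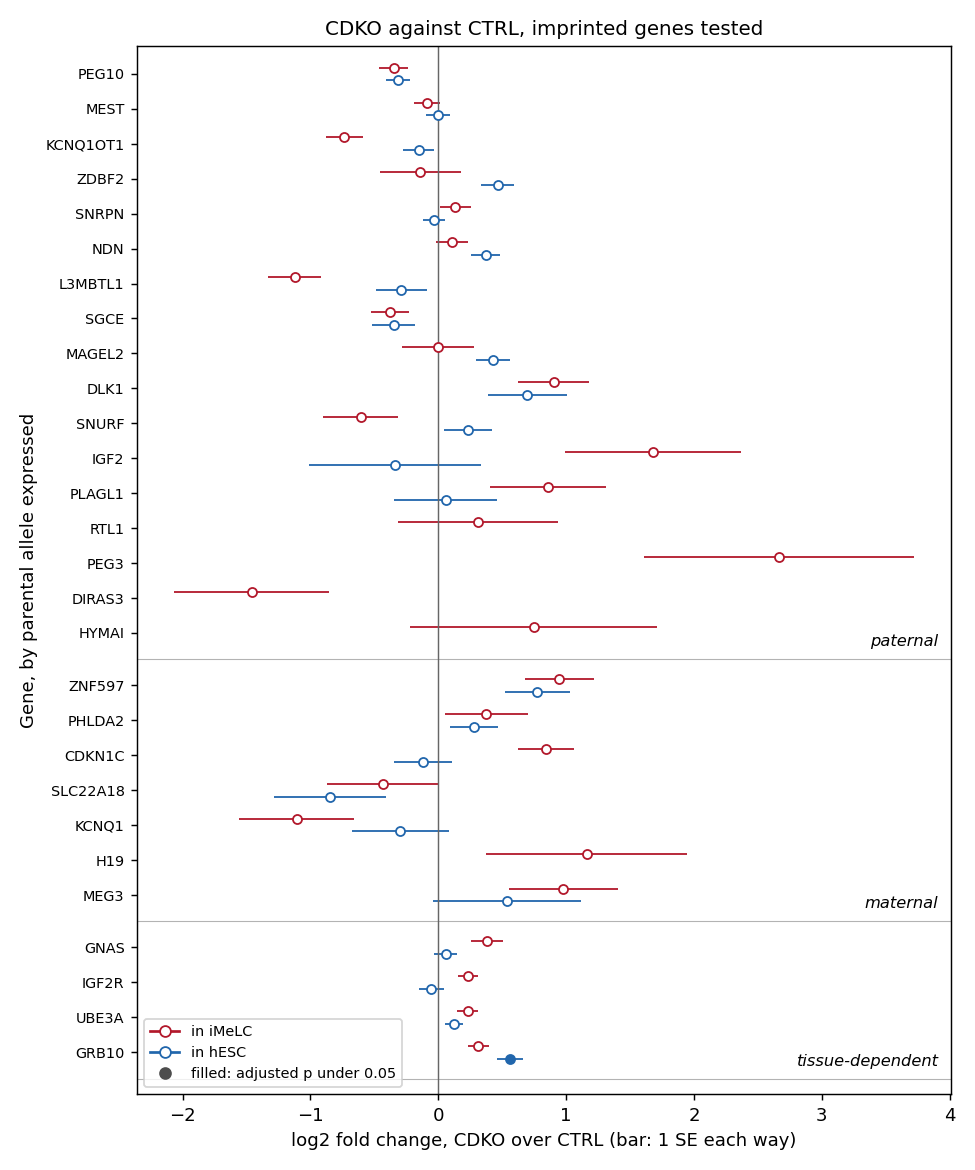
Log2 fold change of CDKO over CTRL for each tested gene, in iMeLC and in hESC, with bars of 1 SE each way and filled points where the adjusted p was under 0.05. GRB10 in hESC (0.56) is the filled point; L3MBTL1 (-1.12) and KCNQ1OT1 (-0.74) in iMeLC lie far from 0 for their error.

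The separation of single libraries was also read. In hESC every CDKO library was above every CTRL library for 6 of the 23 tested genes (GRB10, ZNF597, UBE3A, ZDBF2, NDN and MAGEL2) and below for 2 (PEG10 and SGCE), where 10.2% and 11.8% of all genes tested separate in that way. In iMeLC it was above for 8 of 28 (GRB10, ZNF597, UBE3A, GNAS, IGF2R, CDKN1C, MEG3 and DLK1) and below for 6 (PEG10, SGCE, KCNQ1OT1, L3MBTL1, SNURF and DIRAS3), against 14.3% and 12.2% of all genes. GRB10, ZNF597 and UBE3A were above at both stages, PEG10 and SGCE below at both, and none of the 23 genes tested at both was above at one stage and below at the other. The labels place the same lines at both stages, so the stages are not independent of each other. The share of all genes that separate at both stages was not counted. By allele, the iMeLC separation was above for 4 of 4 tissue-dependent genes tested, for 3 of 7 maternal genes (none below), and for 1 of 17 paternal genes, with 6 of those 17 below. In hESC it was above for 2 of 4 tissue-dependent genes and 1 of 6 maternal genes, with none below. Of 13 paternal genes in hESC, 3 were above and 2 below, so the iMeLC split of paternal genes was not seen there.

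GRB10, of the tissue-dependent genes, was higher in CDKO than in CTRL. The gene (ENSG00000106070, chr7:50590063-50793462, minus strand) encodes an adaptor that binds the insulin and insulin-like growth factor receptors and restrains growth. GRB10 stood at 146, 135 and 145 CPM in CDKO iMeLC and at 119, 112 and 105 CPM in CTRL iMeLC. The hESC levels of GRB10 were 144, 136 and 137 CPM in CDKO and 108, 96.4 and 80.5 CPM in CTRL. The CDKO libraries lay above the CTRL libraries at both stages, and the 2 CDKO groups overlapped each other. The log2 fold change of CDKO over CTRL was 0.56 in hESC (SE 0.10, adjusted p = 0.0321) and 0.31 in iMeLC (SE 0.08, adjusted p = 0.134), and that of iMeLC over hESC was 0.24 in CTRL lines (SE 0.10, adjusted p = 0.0588). The hESC call was lost without any 1 CDKO library, with adjusted p between 0.0936 and 0.153, at log2 fold changes of 0.53 to 0.58. Beside this call, the 4 endoderm markers summed to 9.10, 12.8 and 128 CPM in CDKO hESC and 18.96, 4.40 and 5.73 CPM in CTRL hESC, overlapping. The primitive streak sums given above did not overlap between the genotypes in hESC. Of the genes in that sum, only NODAL separated, at 46.0 to 84.1 CPM in CDKO hESC and 17.5 to 34.2 CPM in CTRL hESC. All 5 streak genes tested in hESC had a higher estimate in CDKO (log2 fold change 1.34 to 2.01), and 1 passed. The 4 endoderm markers were also higher by estimate (2.13 to 2.56), and 0 passed. The part of these markers in the GRB10 call was not tested. Its neighbour DDC, the decarboxylase that makes dopamine and serotonin, was near 0, at 0 to 0.0868 CPM in CDKO iMeLC, 0 to 0.0116 in CTRL iMeLC, 0.0722 to 0.256 in CDKO hESC and 0.101 to 0.183 in CTRL hESC.

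UBE3A, a ubiquitin ligase expressed from the maternal copy in neurons and from both copies elsewhere, stood at 232, 226 and 207 CPM in CDKO iMeLC and at 194, 178 and 183 CPM in CTRL iMeLC. The hESC levels of UBE3A were 185, 186 and 185 CPM in CDKO and 174, 178 and 162 CPM in CTRL. The separation held at both stages, but the iMeLC log2 fold change of 0.23 (SE 0.08, adjusted p = 0.189) did not pass. Between stages UBE3A was higher in iMeLC by 0.26 on the log2 scale in CDKO lines (SE 0.07, adjusted p = 0.00775). Its exons lie opposite SNHG14, the long non-coding host transcript that runs on from SNRPN, so its count is uncertain. GNAS stood at 837, 807 and 772 CPM in CDKO iMeLC and at 727, 569 and 524 CPM in CTRL iMeLC, without overlap, and the log2 fold change was 0.38 (SE 0.12, adjusted p = 0.167). In hESC GNAS stood at 528, 558 and 648 CPM in CDKO and at 571, 530.4 and 573 CPM in CTRL, which overlapped. GNAS was higher in iMeLC by 0.48 on the log2 scale in CDKO lines (SE 0.12, adjusted p = 0.00316).

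IGF2R, the mannose 6-phosphate receptor that clears IGF2 from the cell surface and is imprinted in only some people, had the smallest adjusted p among the genes that rose between stages. Its levels were 374, 343 and 353 CPM in CDKO iMeLC, 318, 284 and 290.1 CPM in CTRL iMeLC, 140.1, 139.7 and 134 CPM in CDKO hESC and 157, 152 and 123 CPM in CTRL hESC. All iMeLC libraries were above all hESC libraries. It was higher in iMeLC than in hESC by 1.37 on the log2 scale in CDKO lines (SE 0.09, adjusted p = 5.42e-08) and 1.05 in CTRL lines (SE 0.09, adjusted p = 8.58e-07). The CDKO iMeLC libraries lay above the CTRL iMeLC libraries, at 0.23 on the log2 scale (SE 0.08, adjusted p = 0.189).

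**Figure D3:**
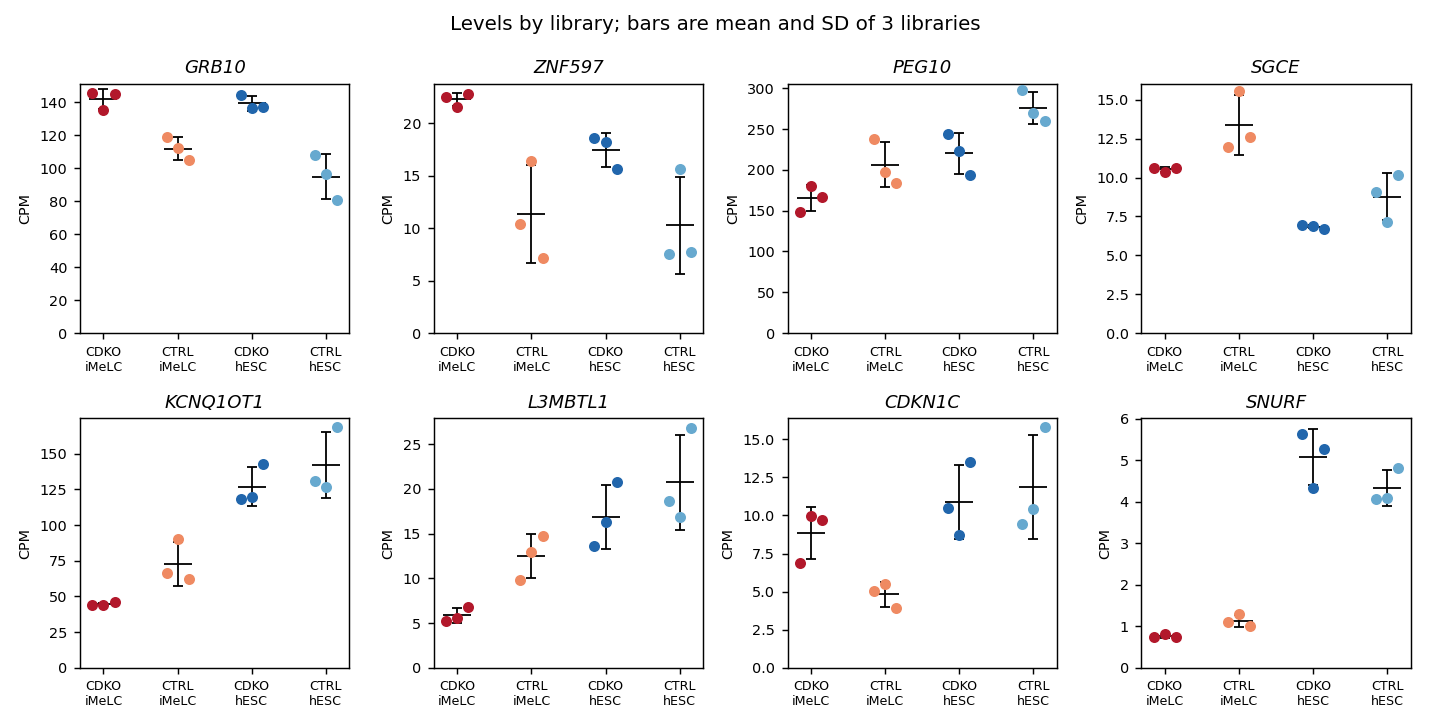
Levels in CPM of 8 genes in the 4 groups, 1 point per library with the mean and SD of 3 libraries on an axis that starts at 0. All CDKO libraries of GRB10 and ZNF597 are above, and those of PEG10 and SGCE below, the CTRL libraries of their stage, and SNURF is at 0.735 to 1.29 CPM in iMeLC libraries, against 4.07 to 5.63 CPM in hESC libraries.

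Of the maternal genes, ZNF597, a zinc finger protein at chr16:3432422-3443553 (minus strand), stood apart by genotype. It was at 22.5, 21.6 and 22.8 CPM in CDKO iMeLC and 10.4, 16.4 and 7.17 CPM in CTRL iMeLC. In hESC it was at 18.6, 18.2 and 15.63 CPM in CDKO and 7.53, 15.61 and 7.71 CPM in CTRL. The CDKO libraries were close together at each stage, while 1 CTRL library of each stage, CTRL1106 in iMeLC and CTRL hESC 2, stood well above the other two and in hESC all but reached the lowest CDKO library. The log2 fold changes of 0.95 in iMeLC (SE 0.27, adjusted p = 0.146) and 0.77 in hESC (SE 0.25, adjusted p = 0.179) did not pass. Without CTRL1106 the iMeLC value was 1.31 (adjusted p = 0.0418), and without CTRL hESC 2 the hESC value was 1.20 (adjusted p = 0.00391). Each of these leaves out the CTRL library nearest the CDKO libraries, which by itself widens the difference. Of 10 alternatives at each stage, 2 called ZNF597 in iMeLC and 3 in hESC, with adjusted p up to 0.418 and 0.417.

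The maternal genes of the KCNQ1OT1 domain on chromosome 11 lie beside KCNQ1OT1, a paternal antisense RNA that silences them in cis on the paternal copy. KCNQ1OT1 (chr11:2608328-2699994, minus strand) stood at 44.1, 44.1 and 45.9 CPM in CDKO iMeLC, 66.1, 90.6 and 62.3 CPM in CTRL iMeLC, 119, 119.7 and 143 CPM in CDKO hESC and 131, 127 and 169 CPM in CTRL hESC. The CDKO iMeLC libraries were the lowest and nearly equal, below every CTRL iMeLC library, while in hESC the genotypes overlapped. Its log2 fold change in iMeLC, CDKO over CTRL, was -0.74 (SE 0.14, adjusted p = 0.0963), and DESeq2 (-0.73, adjusted p = 0.00121) and the fit over 12 libraries (-0.71, adjusted p = 0.0194) called it. Without 1 library the adjusted p ran from 0.0223 to 0.389. Between stages it fell in iMeLC at both genotypes, by 1.51 on the log2 scale in CDKO lines (SE 0.15, adjusted p = 1.61e-06) and by 0.96 in CTRL lines (SE 0.14, adjusted p = 1.08e-04).

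CDKN1C, a cyclin-dependent kinase inhibitor that brakes growth, was at 6.90, 9.94 and 9.69 CPM in CDKO iMeLC, 5.06, 5.53 and 3.92 CPM in CTRL iMeLC, 10.5, 8.71 and 13.5 CPM in CDKO hESC and 9.45, 10.4 and 15.8 CPM in CTRL hESC. CTRL iMeLC stood lowest, below the other 3 groups, and the CDKO iMeLC libraries overlapped the hESC libraries. Its iMeLC level was lower than in hESC by 1.30 (log2, SE 0.24, adjusted p = 5.56e-04) in CTRL lines, and in CDKO lines it did not pass. The genotype log2 fold change in iMeLC was 0.84 (SE 0.22, adjusted p = 0.131). It passed in DESeq2 (0.85, adjusted p = 0.00481) and in the fit over 12 libraries (0.87, adjusted p = 0.0462). Of 10 alternatives only these 2 called it, and the adjusted p ran up to 0.379. The difference between the stages in the genotype effect was 1.0 on the log2 scale (SE 0.33, adjusted p = 0.322).

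PHLDA2, which limits growth of the mouse placenta, stood at 16.1, 15.8 and 23.8 CPM in CDKO iMeLC and 20.5, 8.06 and 13.6 CPM in CTRL iMeLC, and at 11.8, 10.7 and 11.4 CPM in CDKO hESC and 7.86, 12.3 and 7.84 CPM in CTRL hESC. In CDKO lines it was higher in iMeLC than in hESC by 0.72 (log2, SE 0.29, adjusted p = 0.0485), a call kept by 7 of 16 alternatives. KCNQ1, a potassium channel gene whose exons lie opposite KCNQ1OT1 and whose count is therefore uncertain, stood at 0.445, 0.632 and 0.723 CPM in CDKO iMeLC, 0.667, 1.89 and 1.26 CPM in CTRL iMeLC, 1.01, 1.56 and 2.51 CPM in CDKO hESC and 1.37, 2.07 and 2.89 CPM in CTRL hESC. It was lower in iMeLC than in hESC in CDKO lines, by 1.5 on the log2 scale (SE 0.45, adjusted p = 0.0122), and its iMeLC genotype value was -1.11 (SE 0.45, adjusted p = 0.232). SLC22A18, a membrane transporter, ranged between 0.901 and 3.85 CPM with overlapping groups throughout.

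Among the paternal genes, L3MBTL1 (chr20:43489442-43550950, plus strand), a chromatin protein that reads methylated histones, had the smallest adjusted p of the iMeLC genotype comparison. It was at 5.19, 5.57 and 6.83 CPM in CDKO iMeLC, 9.87, 12.9 and 14.7 CPM in CTRL iMeLC, 13.6, 16.2 and 20.8 CPM in CDKO hESC and 18.6, 16.8 and 26.8 CPM in CTRL hESC. The CDKO iMeLC libraries lay below all others, and the hESC genotypes overlapped. The log2 fold change of CDKO over CTRL in iMeLC was -1.12 (SE 0.21, adjusted p = 0.0841). It was called by DESeq2 (-1.11, adjusted p = 3.19e-05) and in the fit over 12 libraries (-1.09, adjusted p = 0.0171). In all, 4 of 10 alternatives called it, and the adjusted p ran up to 0.382. Between stages L3MBTL1 fell in iMeLC, by 1.52 in CDKO lines (SE 0.22, adjusted p = 5.70e-05) and by 0.73 in CTRL lines (SE 0.21, adjusted p = 0.0119; 0.100 without CTRL hESC 3). Its exons overlap unnamed transcripts on both strands, so its count is uncertain.

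PEG10 and its neighbour SGCE, the epsilon sarcoglycan of muscle and brain, start back to back on chromosome 7 and both had their CDKO libraries below the CTRL libraries of the same stage. PEG10 stood at 149, 181 and 166 CPM in CDKO iMeLC and 237, 197 and 184 CPM in CTRL iMeLC, and at 244, 224 and 194 CPM in CDKO hESC and 298, 269 and 260.0 CPM in CTRL hESC. SGCE stood at 10.6, 10.4 and 10.6 CPM in CDKO iMeLC and 11.97, 15.6 and 12.6 CPM in CTRL iMeLC, and at 6.93, 6.91 and 6.71 CPM in CDKO hESC and 9.07, 7.12 and 10.1 CPM in CTRL hESC. No pair of groups overlapped between genotypes, yet none of the 4 genotype values passed: PEG10 at -0.35 (adjusted p = 0.171) in iMeLC and -0.31 (adjusted p = 0.155) in hESC, and SGCE at -0.38 (adjusted p = 0.230) in iMeLC, on the log2 scale. Between stages the neighbours went opposite ways in both genotypes. PEG10 fell in iMeLC by 0.41 in CDKO lines (SE 0.12, adjusted p = 0.00764) and by 0.42 in CTRL lines (SE 0.12, adjusted p = 0.00870), and SGCE was higher by 0.62 (SE 0.16, adjusted p = 0.00404) and by 0.61 (SE 0.15, adjusted p = 0.00513). Their first exons overlap on opposite strands, so reads there cannot be assigned with certainty.

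The paternal cluster on chromosome 15, the one lost in Prader-Willi syndrome, was lower in iMeLC for SNURF, SNRPN and MAGEL2, while no stage change of NDN passed. SNURF, an upstream reading frame on the SNRPN transcript, stood at 0.735, 0.803 and 0.738 CPM in CDKO iMeLC, 1.11, 1.29 and 0.998 CPM in CTRL iMeLC, 5.63, 4.33 and 5.28 CPM in CDKO hESC and 4.07, 4.09 and 4.82 CPM in CTRL hESC. Every iMeLC library lay below every hESC library, and CDKO iMeLC below CTRL iMeLC. The fall in iMeLC was 2.74 on the log2 scale in CDKO lines (SE 0.22, adjusted p = 2.37e-07) and 1.93 in CTRL lines (SE 0.21, adjusted p = 5.53e-06), and the interaction of -0.80 (SE 0.29, adjusted p = 0.357) did not pass. SNRPN, a spliceosomal protein, stood at 40.6, 34.7 and 34.3 CPM, 32.6, 36.4 and 28.9 CPM, 47.3, 47.0 and 41.8 CPM, and 47.1, 43.3 and 49.7 CPM in CDKO iMeLC, CTRL iMeLC, CDKO hESC and CTRL hESC. SNRPN fell in iMeLC by 0.31 on the log2 scale in CDKO lines (SE 0.11, adjusted p = 0.0246) and by 0.52 in CTRL lines (SE 0.11, adjusted p = 0.00151). The 2 symbols share exons on the same strand, so their split depends on a counting rule that no label states.

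MAGEL2, a MAGE protein that works with a ubiquitin ligase, stood at 5.19, 7.12 and 7.55 CPM in CDKO iMeLC, 4.66, 5.82 and 8.94 CPM in CTRL iMeLC, 15.3, 15.8 and 12.8 CPM in CDKO hESC and 10.3, 11.6 and 10.9 CPM in CTRL hESC. It fell in iMeLC by 1.14 in CDKO lines (log2, SE 0.22, adjusted p = 7.54e-04) and by 0.76 in CTRL lines (SE 0.22, adjusted p = 0.0132). In hESC the CDKO libraries lay above the CTRL libraries, at 0.43 on the log2 scale (SE 0.13, adjusted p = 0.153). NDN, a related MAGE protein that restrains cell growth, stood at 25.7, 31.9 and 31.4 CPM in CDKO iMeLC, 24.5, 29.7 and 26.5 CPM in CTRL iMeLC, 35.7, 32.3 and 31.5 CPM in CDKO hESC and 27.8, 27.7 and 21.8 CPM in CTRL hESC. The hESC genotypes of NDN separated too, at 0.37 (SE 0.11, adjusted p = 0.1496). MKRN3, a ring finger protein that restrains the onset of puberty, had 0 to 0.341 CPM.

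ZDBF2, a zinc finger gene, stood at 25.8, 25.4 and 56.2 CPM in CDKO iMeLC, 31.02, 47.5 and 37.5 CPM in CTRL iMeLC, 81.0, 73.7 and 61.2 CPM in CDKO hESC and 54.4, 59.6 and 43.4 CPM in CTRL hESC. CDKO hESC stood highest, above every CTRL hESC library (log2 fold change 0.46, SE 0.13, adjusted p = 0.131), and CDKO1312 stood well above the other CDKO iMeLC libraries. It fell in iMeLC by 1.0 on the log2 scale in CDKO lines (SE 0.27, adjusted p = 0.00648). MEST stood at 110.3, 112 and 94.7 CPM in CDKO iMeLC, 114, 101 and 115 CPM in CTRL iMeLC, 91.9, 92.6 and 83.4 CPM in CDKO hESC and 98.4, 94.0 and 78.1 CPM in CTRL hESC. It was higher in iMeLC by 0.29 in CTRL lines (log2, SE 0.10, adjusted p = 0.0332), a call kept by 6 of 16 alternatives, and at 0.24 in CDKO lines did not pass (adjusted p = 0.0568). PLAGL1, a zinc finger transcription factor, stood at 2.32, 2.76 and 5.35 CPM, 2.12, 0.963 and 2.55 CPM, 1.88, 0.827 and 0.973 CPM, and 1.37, 0.758 and 1.33 CPM in CDKO iMeLC, CTRL iMeLC, CDKO hESC and CTRL hESC. In CDKO lines PLAGL1 was higher in iMeLC by 1.54 (log2, SE 0.46, adjusted p = 0.0121), and HYMAI, a non-coding RNA with which it shares exons, stayed between 0.00978 and 0.438 CPM.

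Between stages, 8 of 28 tested genes were higher and 9 lower in iMeLC in CDKO lines, where 59.8% of all 20262 genes tested passed (32.1% higher and 27.7% lower). In CTRL lines 4 were higher and 8 lower, where 49.4% of all genes passed (29.5% higher and 19.9% lower). These shares, 60.7% and 42.9% of the 28, lie near the background. The median log2 fold change was -0.13 in CDKO lines and -0.09 in CTRL lines, against -0.08 and -0.01 over all genes tested. By allele, 4 paternal genes were higher and 7 lower of 16 tested in CDKO lines, and 3 were higher and 6 lower in CTRL lines. Of 8 maternal genes 1 was higher and 2 lower in CDKO lines and none was higher and 2 lower in CTRL lines, and of 4 tissue-dependent genes 3 were higher in CDKO lines and 1 in CTRL lines, with none lower. Of 4 other long non-coding RNAs, chosen after their values were seen, 3 were lower in iMeLC at both genotypes. SNHG14 was lower by 1.07 on the log2 scale in CDKO lines (adjusted p = 9.03e-07) and 1.10 in CTRL lines (adjusted p = 9.96e-07), and MALAT1, which stays in the nucleus, by 0.87 (adjusted p = 0.00584) and 1.0 (adjusted p = 0.00304). NORAD, found mainly in the cytoplasm, was lower by 0.95 (adjusted p = 2.81e-07) and 0.96 (adjusted p = 3.45e-07). NEAT1, also nuclear, did not pass, at -0.09 (adjusted p = 0.841) in CDKO lines and 0.37 (adjusted p = 0.434) in CTRL lines.

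**Figure D4:**
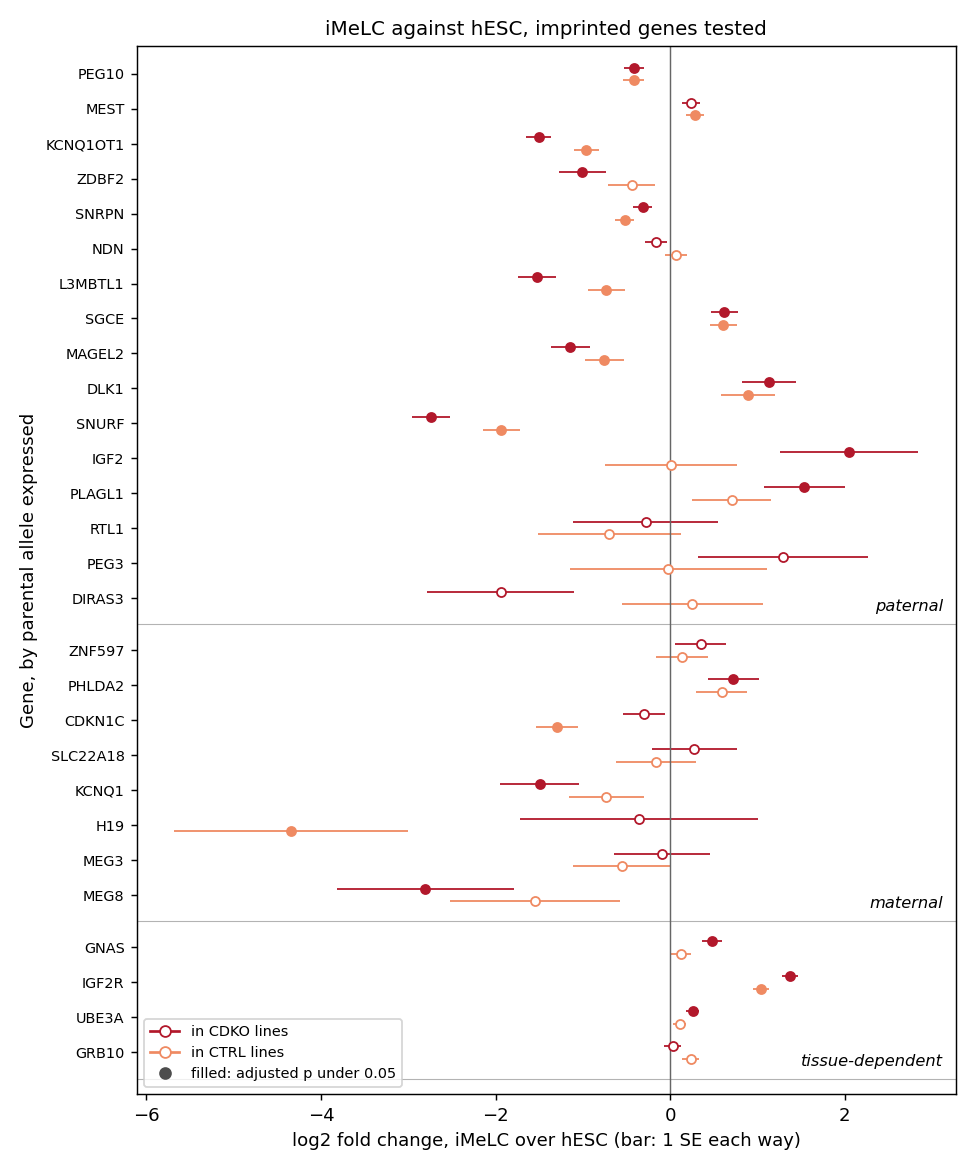
Log2 fold change of iMeLC over hESC for each tested gene, in CDKO and in CTRL lines, with bars of 1 SE each way and filled points where the adjusted p was under 0.05. SNURF, KCNQ1OT1 and L3MBTL1 are lower and IGF2R, SGCE and DLK1 higher in both genotypes; H19 in CTRL lines (-4.34) rests on 1 library.

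The question whether CDKO and CTRL differed unequally at the 2 stages was tested as an interaction over all 12 libraries. None of 28 genes passed, against 0.0197% of 20262 genes, and DESeq2 called none, against 1.12% of all genes it tested. At an unadjusted p under 0.05, as for 11.2% of all genes, there were 6: CDKN1C (1.0), GNAS (0.36) and IGF2R (0.33) with a higher, and SNURF (-0.80), L3MBTL1 (-0.79) and KCNQ1OT1 (-0.55) with a lower CDKO over CTRL difference in iMeLC than in hESC, on the log2 scale, with adjusted p between 0.322 and 0.435.

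The domains of H19 and IGF2 and of DLK1 and MEG3 spread widely between libraries of a group. H19, a maternal non-coding RNA that shares a CTCF-bound control region with the paternal fetal growth factor IGF2, had 180 counts in CTRL hESC 1 and 3 and 1 in CTRL hESC 2 and 3. In CPM, H19 stood at 0.379, 0.421 and 0.318 in CDKO iMeLC, 0.375, 0.0696 and 0.0489 in CTRL iMeLC, 0.433, 0.681 and 0.307 in CDKO hESC and 9.89, 0.152 and 0.0459 in CTRL hESC. The H19 level of CTRL hESC 1 was the highest of all 12 libraries, and CTRL1101 alone among the CTRL iMeLC reached the CDKO iMeLC range. The fall of H19 in iMeLC of CTRL lines, -4.34 (log2, SE 1.34, adjusted p = 0.0165), rests on CTRL hESC 1, without which the value was 0.75 (adjusted p = 0.596). H19 was not tested between genotypes in hESC, where its counts were too low.

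IGF2 stood at 6.88, 5.45 and 2.88 CPM in CDKO iMeLC, 2.91, 0.313 and 1.43 CPM in CTRL iMeLC, 2.46, 0.681 and 0.666 CPM in CDKO hESC and 3.13, 0.960 and 0.596 CPM in CTRL hESC. Here too CTRL hESC 1 and CTRL1101 were the highest CTRL libraries of their stage, and CTRL1101 was 9.31 times the lowest of its group. In CDKO lines IGF2 was higher in iMeLC than in hESC by 2.05 (log2, SE 0.79, adjusted p = 0.0394), a call kept by 11 of 16 alternatives. The genotype value in iMeLC was 1.68 (SE 0.69, adjusted p = 0.237). PEG3, a paternal zinc finger protein, stood at 0.980, 1.08 and 0.174 CPM in CDKO iMeLC, 0.293, 0.0232 and 0.0293 CPM in CTRL iMeLC, 0.361, 0.0973 and 0.461 CPM in CDKO hESC and 0.0550, 0.0505 and 0.229 CPM in CTRL hESC. CTRL1101 again was the highest CTRL iMeLC library and overlapped CDKO1312 (genotype log2 fold change 2.67, SE 1.05, adjusted p = 0.226). ZIM2, which shares exons with PEG3, had no count in 10 of the 12 libraries, CDKO hESC 3 and CTRL hESC 3 being the others.

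**Figure D5:**
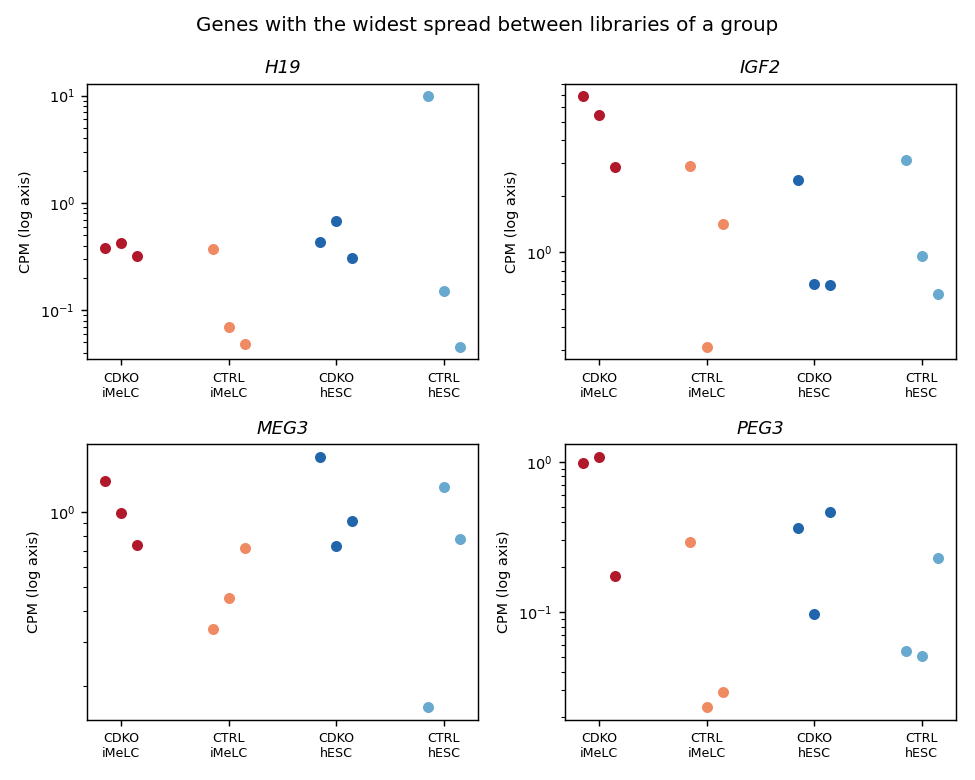
Levels in CPM on a log axis of the 4 genes with over 4-fold spread within a group (at 1 CPM or more), 1 point per library. CTRL hESC 1 stands far above the other CTRL hESC libraries for H19 (9.89 CPM) and below them for MEG3 (0.165 CPM).

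On chromosome 14 the paternal DLK1, a transmembrane ligand related to the Notch ligands, stood at 6.70, 5.85 and 5.01 CPM in CDKO iMeLC, 4.21, 2.20 and 2.79 CPM in CTRL iMeLC, 2.74, 2.19 and 3.07 CPM in CDKO hESC and 2.31, 1.06 and 1.61 CPM in CTRL hESC. All CDKO iMeLC libraries lay above all others, with a genotype log2 fold change in iMeLC of 0.90 (SE 0.28, adjusted p = 0.161) and in hESC of 0.70 (SE 0.31, adjusted p = 0.306). DLK1 was higher in iMeLC by 1.13 in CDKO lines (SE 0.30, adjusted p = 0.00619) and by 0.89 in CTRL lines (SE 0.31, adjusted p = 0.0298). The maternal non-coding RNA MEG3 stood at 1.34, 0.987 and 0.738 CPM in CDKO iMeLC, 0.339, 0.452 and 0.714 CPM in CTRL iMeLC, 1.66, 0.730 and 0.922 CPM in CDKO hESC and 0.165, 1.26 and 0.780 CPM in CTRL hESC. CTRL hESC 1, high for H19 and IGF2, had 3 counts of MEG3, against 25 and 17 in the other CTRL hESC libraries. MEG8, a host transcript of small nucleolar RNAs, stood at 0, 0.0395 and 0.0868 CPM in CDKO iMeLC and 0.289, 0.243 and 0.461 CPM in CDKO hESC, a fall of 2.80 (log2, SE 1.02, adjusted p = 0.0298) on 9 and 18 counts, which 5 of 9 alternatives kept. RTL1, a retrotransposon-derived protein of the placenta, stayed between 0 and 0.717 CPM, and the Ras-like GTPase DIRAS3, from chromosome 1, between 0.0505 and 0.867 CPM, lower in all CDKO than CTRL iMeLC libraries (-1.46, SE 0.61, adjusted p = 0.240). The stage value of DIRAS3 in CDKO lines was -1.94 (log2, SE 0.84, adjusted p = 0.0625).

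CTRL1101 weighed on the iMeLC genotype comparison as a whole. Without it 8 of the 32 genes passed: GRB10 (0.36), GNAS (0.53), IGF2R (0.28), H19 (2.60), DLK1 (1.20) and PEG3 (4.69) higher and L3MBTL1 (-1.26) and KCNQ1OT1 (-0.80) lower in CDKO iMeLC, with adjusted p between 0.0103 and 0.0477. Leaving it out also moved the count over all genes to 2646, or 12.8% of those tested, against 69 with it. The 8 are given out of all 32 genes, of which ZIM2, for 1, had no count in iMeLC. That count and the 12.8% therefore have unlike bases. The 8 fibroblast markers summed to 1089.6, 948 and 803 CPM in CDKO iMeLC and to 1065, 518 and 519.7 CPM in CTRL iMeLC, so CTRL1101 lay in the CDKO range. Endoderm markers summed to 171, 127 and 276 CPM in CDKO iMeLC and to 38.1, 10.4 and 112 CPM in CTRL iMeLC, none of the 4 being at 0. Neuroectoderm markers summed to 80.2, 57.4 and 107 CPM in CDKO iMeLC and to 38.8, 30.2 and 38.4 CPM in CTRL iMeLC, and amnion and trophectoderm markers to 10.6, 9.47 and 6.11 CPM in CDKO iMeLC and to 6.92, 1.59 and 3.33 CPM in CTRL iMeLC. The endoderm and neuroectoderm sums did not overlap between the genotypes, and no gene of these 4 lists passed. The neuroectoderm sum was mostly OTX2, at 54.8 to 105 CPM in CDKO iMeLC and 28.2 to 37.1 CPM in CTRL iMeLC. OTX2 also stood at 31.6 to 55.1 CPM in CTRL hESC. The other neuroectoderm markers, PAX6, SOX1 and LHX2, were low and overlapped between the genotypes in iMeLC. Whether a mix of cell types had a part in the iMeLC genotype values was not tested. In CTRL hESC 1 amnion and trophectoderm markers summed to 17.2 CPM, against 3.03 and 3.07 CPM in the other CTRL hESC libraries.

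The spread within groups is given as a description. The median range between the 3 libraries, in log2(CPM + 0.5), was 0.26 in CDKO iMeLC, 0.52 in CTRL iMeLC, 0.36 in CDKO hESC and 0.53 in CTRL hESC over the 28 genes in the fit, against 0.25, 0.39, 0.28 and 0.34 over all 20262 genes. A range over 1 was found for 14.3%, 21.4%, 10.7% and 17.9% of them in those groups, against 2.65%, 10.4%, 3.37% and 5.30% of all genes. Low counts widen the range, and several of these genes were low.

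Of 23 factors that set, read or keep imprints, NLRP2 and NLRP7, oocyte-type genes, passed between genotypes in hESC, both higher in CDKO, of 20 tested. Of all genes tested in hESC 1.31% passed. NLRP7, whose loss in the mother causes failure of maternal imprints, stood at 5.78, 9.39 and 6.05 CPM in CDKO hESC and 2.86, 3.33 and 2.84 CPM in CTRL hESC (log2 fold change 1.25, SE 0.23, adjusted p = 0.0349). None of 20 factors passed in iMeLC, where 0.345% of all genes tested did. ZFP57 stood at 0.423 to 1.24 CPM in CDKO iMeLC, 0.510 to 0.925 CPM in CTRL iMeLC, 0.871 to 2.34 CPM in CDKO hESC and 2.20 to 2.34 CPM in CTRL hESC. None of 24 other transcripts of the same domains tested in iMeLC, nor of 21 in hESC, passed between genotypes. Between stages 8 were higher and 5 lower of 23 in CDKO lines, or 56.5%, against 59.8% of all genes tested. In CTRL lines 7 were higher and 4 lower of 23, or 47.8%, against 49.4% of all genes tested. These stage shares lie near the background.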

How the data were processed

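The deposited values are raw read counts for each gene symbol, whole numbers that the authors gave in 1 table per stage. RNA was extracted with the RNeasy micro kit and libraries with a SMARTer Stranded Total RNA kit, per the labels' protocols. The tools were FastQC, cutadapt and edgeR and the build GRCh38, per the submitters' processing notes. Aligner, counting program, annotation and use of strand were not given in the sources used here, so counts of overlapping genes are uncertain. In GENCODE release 29 (34217 of 36762 symbols matched 1 gene, 93.1%), exons overlap another gene on the opposite strand for 17 of the 32 genes and on the same strand for 11. That annotation gave coordinates and lengths for 31 of them. Promoters are from RefSeq (GRCh38.p14), which gave one for 20 of the 32.

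The columns of the iMeLC table name the line, and those of the hESC table name genotype and replicate; 0 columns were without a group. Replicate libraries differed by a chi-square of 4.41 to 198 per gene, so each was kept as a sample. The labels name separate lines but no culture days, and p-values measure the spread between libraries, which may be technical in part. Counting error alone limits genes near 3 counts.

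Tests were made with edgeR 4.0.16 in R 4.3.3 (quasi-likelihood, two-sided, TMM, filterByExpr), with Benjamini-Hochberg adjustment over all genes tested and a threshold of 0.05. Genotype comparisons were fitted on the 6 libraries of a stage, and stage and interaction comparisons on all 12 with 4 group means. Stage fits treat libraries of a line as independent. Every CPM printed uses TMM factors over 12 libraries, and values in a group follow the order of the line or library numbers. Ranges used log2(CPM + 0.5). The fits were tested on simulated data with 200 changed genes. Alternatives were DESeq2 1.42.0, RLE size factors, no filter on low counts, other libraries in the fit, and leaving out each library.

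The members, lists and tests were chosen with earlier results of these data known. Given library by library were genes called in any comparison, genes with over 4-fold spread in a group at 1 CPM or more, and genes of their domains; ZNF597 was added after its values were seen. Log2 fold changes are printed for values with an unadjusted p under 0.05 and for genotype calls made when a library is left out.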

Additional observations from a re-analysis of the deposited data

How the results depend on the processing

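Of 135 member values over the 5 comparisons, 34 changed direction under at least 1 alternative, 33 of them among the 75 with an unadjusted p of 0.05 or more. The exception was H19 between stages in CTRL lines, at -4.34, which ran between -5.80 and 0.75 on leaving out 1 library and was 0.75 without CTRL hESC 1. The genotype count in hESC, 1 gene, was 5 without the filter on low counts (GRB10, ZNF597, ZDBF2, PEG10 and H19, which the filter otherwise removes), 3 in DESeq2 and 0 to 2 with 1 library left out. The genotype count in iMeLC, 0, was 2 without the filter, 5 in DESeq2, 4 in the fit over 12 libraries and 0 to 8 with 1 library left out, 8 being without CTRL1101 and 1 without CTRL1106. Stage counts stayed at 12 to 18 in CDKO lines and 9 to 14 in CTRL lines, and the interaction at 0. Over all genes, the hESC genotype count of 226 was 1228 without the filter, 632 in DESeq2, 72 in the fit over 12 libraries and 5 to 493 with 1 library left out. The iMeLC count of 69 was 428, 1479, 1310 and 15 to 2646 under the same changes, and the interaction count of 4 was 29, 192 and 1 to 439. The cause was not tested. No paired analysis was possible because the hESC columns carry no line number, so they cannot be matched to the iMeLC lines. Depth limits the hESC values of genes under 1 CPM, where 3 counts are 0.138 to 0.217 CPM.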

Other observations

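NLRP2, a subcortical complex gene of the egg that the list of imprint factors holds, was high in 2 of 3 CDKO libraries at each stage. It stood at 1.83, 140.6 and 156 CPM in CDKO iMeLC and 1.07, 2.99 and 1.51 CPM in CTRL iMeLC, and at 2.60, 184 and 159 CPM in CDKO hESC and 2.09, 3.54 and 1.51 CPM in CTRL hESC. The CDKO library at the CTRL level was CDKO1102 in iMeLC and CDKO hESC 1 in hESC. Genotype log2 fold changes were 5.62 in hESC (SE 1.14, adjusted p = 0.0496) and 5.71 in iMeLC (SE 1.34, adjusted p = 0.123, edgeR's quasi-likelihood test), and the groups overlapped at both stages. Among the imprinted genes, CDKO1102 stood near the other CDKO iMeLC libraries for GRB10, ZNF597, SGCE and KCNQ1OT1. It was below both of them for some genes, such as CDKN1C, NDN, MAGEL2 and PEG10. For others, such as UBE3A, GNAS, IGF2R, SNRPN and DLK1, it was above both. Whether these levels go with NLRP2 was not tested.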
